A study of Mus musculus with 5 samples.

Results

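Cycling kidney lymphocytes are the cells of 2 kidney libraries that carried messenger RNA of genes used in S phase and mitosis. A cell was taken as cycling when it held at least 3 unique molecular identifiers (UMIs, each standing for 1 captured transcript) of Mki67, Top2a, Pclaf and Cdk1 together. Of 12172 kidney cells that passed the filters on depth, gene number and mitochondrial share, 253 were cycling, and 20619 cells passed them in all 4 libraries analysed. The cycling cells comprised 168 of 6960 cells from mice labelled PD-1 knockout and 85 of 5212 cells from wild-type mice. The cells were chosen by their counts of these 4 genes, so the levels of cell cycle genes in them are given as a description.

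The knockout-labelled library came from kidneys of strain B6.Cg-Pdcd1tm1.1Shr/J, 3 days after unilateral ureteral obstruction (UUO), in which the left ureter is tied off and cut so that urine backs up and the kidney becomes inflamed. The wild-type library came from kidneys 14 days after the same surgery. All mice were male and 8 to 10 weeks old, the labels call the kidney cells innate lymphoid cells, and the sources used here give no number of mice for a library. Each group is 1 library without a replicate, so no difference was tested, and genotype and day after surgery cannot be told apart. Intervals in brackets are exact 95% intervals and cover counting error only. The sources used here do not say which part of Pdcd1, the gene of PD-1, is deleted or where in it the counted tags lie, so its counts check nothing about the knockout.

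PD-1 is an inhibitory receptor of activated T cells and innate lymphoid cells that restrains their signalling and division. Group 2 innate lymphoid cells (ILC2s) lack an antigen receptor, depend on the transcription factor GATA3, respond to interleukin-33 through ST2 (gene Il1rl1) and release type 2 cytokines. A dividing lymphocyte first loads the MCM helicase onto its DNA, then copies the DNA with PCNA and the replicative polymerases, and at last condenses and separates its chromosomes with cyclin B, CDK1 and the spindle. Genes of the first steps are switched on by E2F factors, and genes of the last steps by a complex that binds the cell cycle genes homology region (CHR) of their promoters.

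All 4 genes of the rule were counted in both libraries. Mki67, a protein of the surface of mitotic chromosomes, reached 1009 CPM (UMIs of the gene per 1000000 UMIs of the summed cells) in cycling and 15.4 CPM in other knockout-labelled cells, and 1329 CPM in cycling and 21.5 CPM in other wild-type cells. Top2a, the topoisomerase that untangles copied DNA, reached 1691 CPM in cycling and 33.4 CPM in other knockout-labelled cells, and 1908 CPM in cycling and 44.9 CPM in other wild-type cells. Pclaf, a PCNA-binding protein, reached 705 CPM in cycling and 4.30 CPM in other knockout-labelled cells, and 984 CPM in cycling and 1.81 CPM in other wild-type cells. Cdk1, the kinase that drives entry into mitosis, was the weakest of the 4 in cycling cells, at 179 CPM in knockout-labelled and 152 CPM in wild-type cells.

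The rule sets a lower bound on a continuous range, and the cells just inside it resembled those just outside it. In knockout-labelled kidney, 136 cells held 2 UMIs of the 4 genes and 41 held 3, and in wild-type kidney 138 held 2 and 32 held 3. Knockout-labelled cells with 3 UMIs had a median of 6 UMIs over the 59 genes of 3 S phase lists and 2 UMIs over the 64 genes of 3 mitosis lists, against 5 and 2 UMIs in cells with 2 UMIs of the rule genes. Wild-type cells with 3 UMIs had medians of 3 and 2 UMIs, against 3 and 1 UMIs in those with 2. The S phase lists stepped up at 6 UMIs: their median was 33 UMIs in 17 knockout-labelled cells with 6 to 9 UMIs of the rule genes and 29 UMIs in 4 such wild-type cells. The mitosis lists had a median of 7 UMIs in those cells of either library, and 29.5 UMIs in knockout-labelled and 18 UMIs in wild-type cells with 10 to 19 UMIs of the rule genes. At 20 or more UMIs of the rule genes the medians were 57.5 and 65.5 UMIs in 56 knockout-labelled cells and 49 and 67 UMIs in 25 wild-type cells.

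The step of the S phase lists was also seen at equal depth. With every cell thinned to 1000 UMIs, the S phase lists had a median of 2 UMIs in knockout-labelled cells with 3 UMIs of the rule genes, 8 in those with 6 to 9 and 9 in those with at least 20. The mitosis lists had no step at 6 UMIs at equal depth, with a median of 1 UMI in knockout-labelled cells with 3 and with 6 to 9 UMIs of the rule genes, 5 in those with 10 to 19 and 10.5 in those with at least 20. The cycling cells were therefore also described in an upper range of at least 6 UMIs, with 95 knockout-labelled and 38 wild-type cells, and a lower range of 3 to 5 UMIs, with 73 and 47 cells. This division was chosen after the values were seen. Cycling cells were deeper than others, with median totals of 4641.5 UMIs in cycling and 2043 in other knockout-labelled cells, and 2976 in cycling and 1815 in other wild-type cells.

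**Figure D1:**
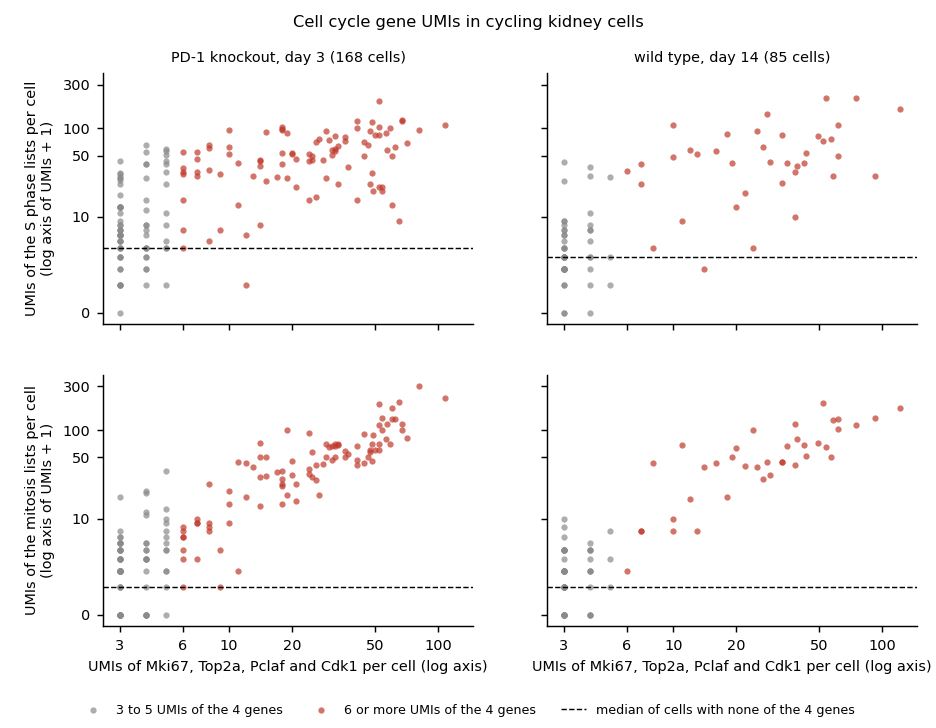
Each point is 1 cycling cell, with the UMIs of the 4 rule genes on the x axis (log scale) and the UMIs of the S phase lists (top) or the mitosis lists (bottom) on the y axis (log scale of UMIs + 1), for 168 knockout-labelled cells on the left and 85 wild-type cells on the right. Grey points (3 to 5 UMIs) mostly lie near the dashed median of cells with none of the 4 genes, and red points (6 or more) mostly lie above it, with mitosis UMIs climbing along the x axis.

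Lineage was assigned from the genes of the CD3 chains (Cd3d, Cd3e, Cd3g), from Il1rl1 and Gata3, or from Ncr1 and Klrb1c, the last pair marking ILC1 and NK cells. Despite the label of innate lymphoid cells, the CD3 genes assigned 4134 of 6960 knockout-labelled and 3070 of 5212 wild-type kept cells to T cells. Among the cycling cells, T-assigned cells made up 60.1% [52.3 to 67.6] in knockout-labelled and 58.8% in wild-type kidney, close to their share of the other cells (59.4% in knockout-labelled kidney). ILC2-assigned cells made up 21.4% of knockout-labelled cycling cells, against 10.7% of the other knockout-labelled cells, and 11.8% of wild-type cycling cells. In the upper range of wild-type kidney only 34.2% of cycling cells were T-assigned.

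ILC2-assigned cells had the highest cycling share of the lineages in knockout-labelled kidney, with 36 of 764 cells or 4.71% [3.32 to 6.46], and 10 of 565 or 1.77% in wild-type kidney. The knockout-labelled share was 2.66 times the wild-type one [1.29 to 6.02], a log2 ratio of 1.41 [0.37 to 2.59]. When 1 UMI was enough for a lineage this log2 ratio was 0.98, and its interval spanned 0 [-0.15 to 2.21]. Without cells holding UMIs of more than 1 lineage it was 1.35 [0.30 to 2.53], and with the lineage of most UMIs 1.35 [0.53 to 2.25]. Depth differed too: non-cycling knockout-labelled cells had medians of 2745.5 UMIs when ILC2-assigned and 1985 when T-assigned. Among T-assigned cells, 101 of 4134 or 2.44% cycled in knockout-labelled kidney and 50 of 3070 or 1.63% in wild-type kidney, a log2 ratio of 0.59 [0.08 to 1.10]. This interval spanned 0 under some other readings of the lineage. Without cells holding UMIs of more than 1 lineage the shares were 1.73% in knockout-labelled and 1.62% in wild-type kidney, a log2 ratio of 0.090 [-0.50 to 0.69]. With the lineage of most UMIs the log2 ratio was 0.46 [-0.09 to 1.03]. The interval stayed above 0 when 1 UMI was enough for a lineage, with a log2 ratio of 0.62 [0.16 to 1.10]. ILC1/NK-assigned cells had 12 cycling cells of 913 or 1.31% in knockout-labelled and 6 of 668 or 0.898% in wild-type kidney, and the interval of their log2 ratio [-0.98 to 2.25] spanned 0.

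The T-assigned ratio also depended on the bound. At 6 or more UMIs, 56 of 4134 knockout-labelled and 13 of 3070 wild-type T-assigned cells remained, a log2 ratio of 1.68 [0.79 to 2.67], whereas at 2 or more UMIs the log2 ratio was -0.02. For ILC2-assigned cells, 22 of 764 knockout-labelled and 9 of 565 wild-type cells were in the upper range, and the log2 ratio of 0.85 had an interval from -0.32 to 2.16. At 5 or more UMIs their log2 ratio was 1.10 [-0.04 to 2.37]. With cells thinned to 1000 UMIs, 1.18% of knockout-labelled and 0.783% of wild-type kept cells were cycling, and the T-assigned shares were 0.699% in knockout-labelled and 0.672% in wild-type kidney. That lineage was read from the thinned cell, and with the lineage of the whole cell the shares were 1.13% in knockout-labelled and 0.615% in wild-type kidney. For ILC2-assigned cells the log2 ratio was 1.41 [0.05 to 3.01] with the lineage of the thinned cell. With that of the whole cell it was 0.98, and its interval spanned 0 [-0.45 to 2.62]. The thinning left out 376 knockout-labelled and 361 wild-type cells, of which 3 in each library were cycling.

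**Figure D2:**
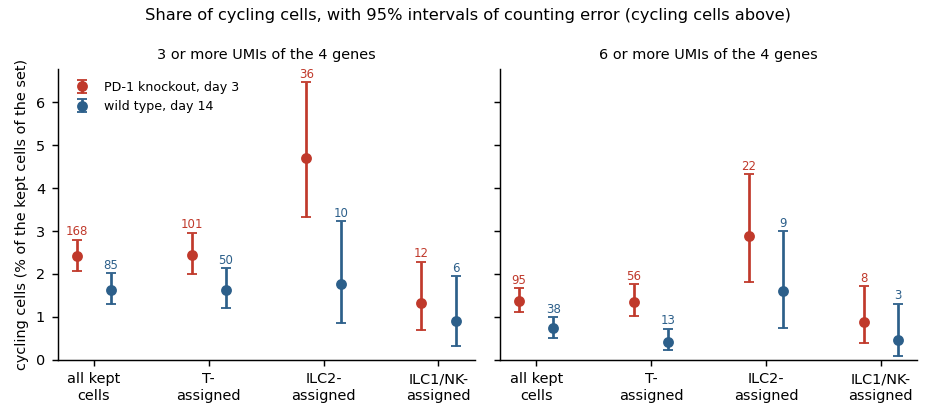
Share of cycling cells (y axis, % of the kept cells of each set) over all kept cells and over T-, ILC2- and ILC1/NK-assigned cells (x axis), with knockout-labelled cells in red left of wild-type cells in blue. Points are 1 library each, bars are exact 95% intervals of counting error and the digits are numbers of cycling cells. At 3 or more UMIs (left) the ILC2-assigned share is 4.71% in knockout-labelled and 1.77% in wild-type kidney, and at 6 or more UMIs (right) the T-assigned share is 1.35% and 0.423%.

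The same rule was applied to intestinal libraries of wild-type mice, labelled as group 3 innate lymphoid cells. It gave 99 of 4946 cells or 2.00% [1.63 to 2.43] 3 days after UUO and 57 of 3501 or 1.63% [1.24 to 2.10] after sham surgery. In the upper range the intestinal shares were 0.728% after UUO and 0.857% after sham surgery. The lower-range intestinal cells were shallow, with median totals of 793 and 1319 UMIs. Over the 4 libraries the share ranged between 1.63 and 2.41%.

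Many cycling T-assigned cells of knockout-labelled kidney also held UMIs of the ILC2 genes. More UMIs of Il1rl1 and Gata3 than of the CD3 genes were counted in 20 of 101 cycling and 131 of 4033 other T-assigned knockout-labelled cells, and in 6 of 50 cycling and 95 of 3020 other T-assigned wild-type cells. In the upper range this held for 19 of 56 knockout-labelled T-assigned cells. When each cell was given the lineage with the most UMIs, 56 of 913 ILC2-assigned cells (6.13%) cycled in knockout-labelled and 16 of 666 (2.40%) in wild-type kidney. At least 2 UMIs of more than 1 lineage set were held by 26.2% of cycling and 9.86% of other knockout-labelled cells, and by 10.6% of cycling and 10.0% of other wild-type cells. Whether these are doublets or cells with both kinds of transcripts was not tested. The Scrublet doublet caller marked 6 of the 168 cycling knockout-labelled cells, and it marked under 0.5% of wild-type cells. Whether it finds the doublets of these libraries was not tested, so nothing is read from its calls.

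**Figure D3:**
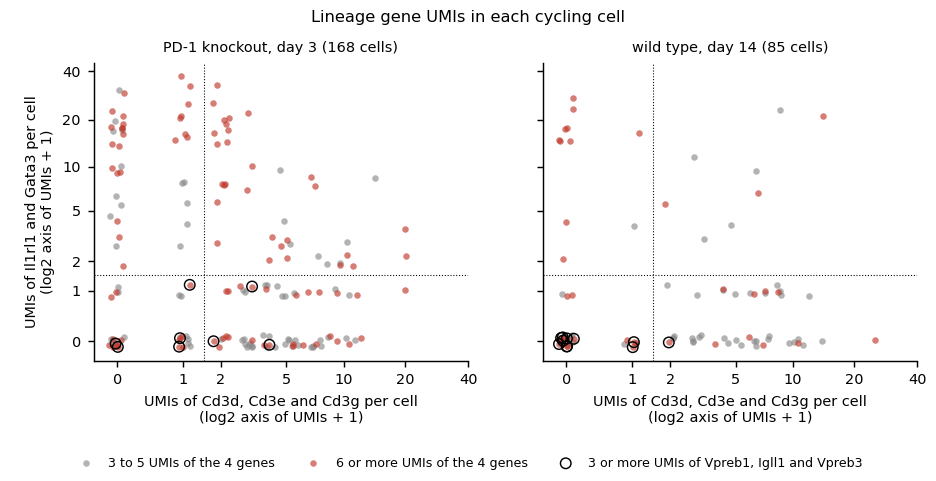
Each point is 1 cycling cell, with UMIs of the CD3 genes on the x axis and of Il1rl1 and Gata3 on the y axis (log2 scales of UMIs + 1, points shifted slightly at random), knockout-labelled on the left and wild-type on the right. Dotted lines mark the 2 UMIs needed for a lineage, red points have 6 or more UMIs of the rule genes, and circles mark the 8 knockout-labelled and 11 wild-type cells with UMIs of the surrogate light chain genes, which lie at low counts on both axes. In knockout-labelled kidney 37 of the 101 T-assigned cells also lie above the horizontal line, and in wild-type kidney 8 of 50.

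Cycling T-assigned cells were set against the other T-assigned cells of their library, and a gene was measured when it had at least 20 UMIs over both sets and reached 100 CPM in either. In knockout-labelled kidney 205 of 2301 measured genes (8.91%) were higher by at least 2-fold and 87 (3.78%) were lower. In wild-type kidney 194 of 2430 (7.98%) were higher and 88 (3.62%) lower. The cells were chosen for genes of the same programme, so nothing is read from these shares.

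The replication lists were higher in cycling cells of each kind. In T-assigned knockout-labelled cells, 7 of 9 measured replication licensing genes, 9 of 10 measured replication fork genes and 7 of 7 measured nucleotide supply genes were higher by at least 2-fold, out of lists of 17, 27 and 15 genes. A gene near 0 in other cells is measured through the cycling cells alone, so such counts describe the measured genes and are no support. The MCM helicase subunit Mcm5 had 275 CPM in cycling and 46.6 CPM in other cells, and the fork protein Clspn 107 CPM in cycling and 2.34 CPM in other cells. Rrm2, the ribonucleotide reductase subunit that makes deoxynucleotides, had 287 CPM in cycling and 11.6 CPM in other cells. Wild-type T-assigned cells had Rrm2 at 236 CPM in cycling and 9.26 CPM in other cells, and Mcm5 at 265 CPM in cycling and 36.7 CPM in other cells.

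The mitosis lists leave out the genes of the rule, but the cells were chosen by Mki67, Top2a and Cdk1 of the same programme, so the size of their ratios is set in part by that choice. In knockout-labelled T-assigned cells 11 of 12 measured mitotic kinase, cyclin and checkpoint genes and 8 of 8 measured spindle genes, of 24 in each list, were higher by at least 2-fold, with median log2 ratios of 4.0 and 4.36. Birc5, the survivin subunit of the chromosomal passenger complex, had 394 CPM in cycling and 2.90 CPM in other cells. Cenpf, a kinetochore protein, had 144 CPM in cycling and 0.67 CPM in other cells, where it had 6 UMIs. Stmn1, which destabilises microtubules, had 965 CPM in 63 of 101 cycling cells with a UMI and 19.6 CPM in the other cells. Ribosome biogenesis genes (0 of 6 measured in either direction, median log2 0.16) and glycolysis genes (median 0.51) stayed within 2-fold.

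ILC2-assigned cycling cells carried the same lists at similar ratios. Of 2214 genes measured in knockout-labelled ILC2-assigned cells, 187 (8.45%) were higher and 69 (3.12%) lower by at least 2-fold in the 36 cycling cells than in the 728 others. Of the measured genes 10 of 10 replication fork, 8 of 9 mitotic and 8 of 8 spindle genes were higher. Ube2c, which ends mitosis by marking cyclin B for destruction, had 327 CPM in cycling and 1.90 CPM in other cells. Ccna2, the cyclin of S and G2 phase, had 208 CPM in cycling and 0.95 CPM in other cells, where it had 2 UMIs.

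In the lower range of T-assigned knockout-labelled cells the programme was weak. Of 2285 genes measured in T-assigned knockout-labelled cells with 3 to 5 UMIs, 143 (6.26%) were higher and 50 (2.19%) lower. There, 2 of 6 replication licensing genes, 1 of 4 fork genes, 0 of 1 mitotic gene and 2 of 11 chromatin genes were higher by at least 2-fold, and no spindle gene was measured. In the upper range of the same cells, 298 of 2388 genes (12.5%) were higher and 211 (8.84%) lower. Depth differed with the range: the medians were 5541 UMIs in the upper and 2681 in the lower range of T-assigned knockout-labelled cells. The 14 lower-range ILC2-assigned knockout-labelled cells were unlike these. Their S phase lists had a median of 31.5 UMIs and 6390 CPM, against 4 UMIs and 2134 CPM in other ILC2-assigned cells. Upper-range ILC2-assigned cells had 8664 CPM. The mitosis lists had 1363 CPM in the lower and 8457 CPM in the upper range. The step at 6 UMIs was read over all lineages together.

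**Figure D4:**
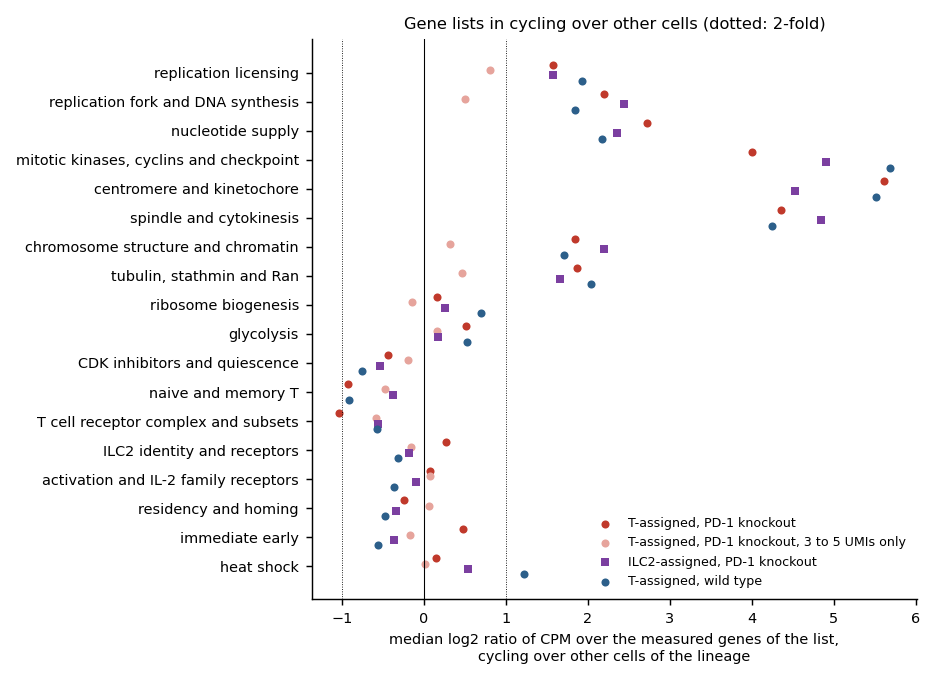
Median log2 ratio of CPM in cycling over other cells (x axis) of the measured genes of each list (y axis), for lists with at least 2 measured genes. Red and blue circles are T-assigned cells of knockout-labelled and wild-type kidney, and violet squares ILC2-assigned knockout-labelled cells. Pale red circles are the lower-range T-assigned cells of knockout-labelled kidney. The replication and mitosis lists lie beyond the dotted 2-fold line except in these lower-range cells, and ribosome biogenesis and glycolysis lie within it.

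Promoters are shown for 4 cell cycle genes because the S phase and mitosis lists, which step up at different UMI counts of the rule genes, differ in their promoter letters. They were taken from RefSeq in build GRCm38.p6, from 250 bases before to 50 after the annotated start, printed 5′ to 3′ on the strand of the gene. Capitals mark the CHR letters TTTGAA, the CCAAT box and the E2F letters TTTCCCGC, TTTGGCGC, TTTCGCGC or TTTGCCGC on either strand. Cdk1 lies at chr10:69352863-69353162 on the minus strand and the mitotic cyclin gene Ccnb2 at chr9:70421505-70421804 on the minus strand. Pclaf lies at chr9:65890073-65890372 on the plus strand and Mcm5 at chr8:75109259-75109558 on the plus strand.
Cdk1: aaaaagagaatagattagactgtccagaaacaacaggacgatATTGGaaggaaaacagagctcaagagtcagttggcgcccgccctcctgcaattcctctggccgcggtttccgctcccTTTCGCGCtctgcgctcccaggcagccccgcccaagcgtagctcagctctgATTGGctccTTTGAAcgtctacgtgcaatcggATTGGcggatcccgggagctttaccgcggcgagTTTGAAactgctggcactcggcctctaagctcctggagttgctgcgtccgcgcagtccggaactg
Ccnb2: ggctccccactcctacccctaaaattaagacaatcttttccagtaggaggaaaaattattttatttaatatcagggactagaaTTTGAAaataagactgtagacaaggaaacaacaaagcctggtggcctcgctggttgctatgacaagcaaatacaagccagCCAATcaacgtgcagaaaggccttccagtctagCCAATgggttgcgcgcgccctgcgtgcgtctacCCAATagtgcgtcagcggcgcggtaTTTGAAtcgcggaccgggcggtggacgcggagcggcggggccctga
Pclaf: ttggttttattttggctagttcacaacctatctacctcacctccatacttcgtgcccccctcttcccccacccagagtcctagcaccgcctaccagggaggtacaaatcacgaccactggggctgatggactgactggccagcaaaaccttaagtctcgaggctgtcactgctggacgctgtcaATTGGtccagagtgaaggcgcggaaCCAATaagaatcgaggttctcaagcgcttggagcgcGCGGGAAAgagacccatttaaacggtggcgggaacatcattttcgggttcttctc
Mcm5: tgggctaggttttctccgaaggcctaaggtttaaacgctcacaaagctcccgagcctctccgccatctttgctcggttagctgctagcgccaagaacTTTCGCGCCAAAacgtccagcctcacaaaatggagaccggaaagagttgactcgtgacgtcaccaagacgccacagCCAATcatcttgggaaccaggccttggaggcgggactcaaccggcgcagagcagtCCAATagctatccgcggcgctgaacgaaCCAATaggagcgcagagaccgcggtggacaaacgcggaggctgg

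The promoters of Cdk1 and Ccnb2 each held TTTGAA at 2 places. In Cdk1 they began 71 and 15 bases before the start, and 3 CCAAT boxes lay on the opposite strand. Pclaf and Mcm5 held no TTTGAA in this window and had E2F letters, 1 match in Pclaf and 2 overlapping matches in Mcm5. The letters do not divide the genes cleanly: Cdk1 also held the E2F letters TTTCGCGC, and the promoter of the S phase gene Rrm2 held neither TTTGAA nor E2F letters. The promoters used here did not cover every chromosome, and a gene was counted when any of its promoters held the letters. Of the 64 mitosis genes 56 had a promoter, and 38 of them held TTTGAA. Of the 59 S phase genes 50 had a promoter, and 7 of them held TTTGAA, against 20.2% of all 27025 genes with a promoter. E2F letters were in 15 of 50 S phase genes, 2 of 56 mitosis genes and 2.60% of all. CCAAT was in 42 of 56 mitosis genes, 29 of 50 S phase genes and 41.1% of all. These are matches of letters and show no binding.

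S phase UMIs outnumbered mitosis UMIs in 119 of 168 cycling knockout-labelled cells (70.8% [63.3 to 77.6]) and in 51 of 85 wild-type cells (60.0% [48.8 to 70.5]). Other cells had the same tendency, at 77.8% in knockout-labelled kidney with medians of 4 S phase and 1 mitosis UMIs, so the share is not particular to cycling cells. Whether those few UMIs come from weak expression or from free RNA captured with the cell was not tested. In the upper range the share was 62.1% [51.6 to 71.9] in knockout-labelled kidney and 19 of 38 cells [33.4 to 66.6] in wild-type kidney, and the intervals overlapped.

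Some genes of T cell receptors and effectors were among the lowest ratios. In knockout-labelled T-assigned cells Cd27, a co-stimulatory receptor, had 25.4 CPM in cycling and 117 CPM in other cells. The survival gene Bcl2 had 84.0 CPM in cycling and 247 CPM in other cells, and the chemokine gene Ccl5 had 1535 CPM in cycling and 4606 CPM in other cells. Of 15 measured T cell receptor and T cell subset genes 8 were lower by at least 2-fold, against 3.78% of all measured genes. Of 9 measured cytotoxic and type 1 effector genes 4 were lower. Cd3d had 191 CPM in cycling and 511 CPM in other cells.

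The levels of both lists moved with cells that also held UMIs of other kinds. When T-assigned cells with more ILC2 than CD3 UMIs or with UMIs of macrophages, neutrophils, kidney epithelium or the surrogate light chain were left out of both sets, 35 of 2283 genes (1.53%) were lower and 128 (5.61%) higher by at least 2-fold. Among them 0 of 15 T cell receptor and subset genes were lower (median log2 -0.26), and of 9 effector genes 0 were lower and 2 higher (median -0.30). Ccl5 then had 2586 CPM in cycling and 4931 CPM in other cells, within 2-fold, Cd27 37.5 CPM in cycling and 124 CPM in other cells, and Cd3e had 998 CPM in cycling and 1143 CPM in other cells. This choice was made after the values were seen and selects in part on the CD3 genes. Without these cells 10 of 11 mitotic, 8 of 8 spindle and 17 of 17 chromatin genes were higher by at least 2-fold.

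In ILC2-assigned knockout-labelled cells the identity genes were near their level in other cells. Gata3 had 1189 CPM in cycling and 1356 CPM in other cells, Il1rl1 1445 CPM in cycling and 1676 CPM in other cells, and 0 of 12 measured ILC2 identity genes differed by 2-fold. Both genes also assigned the lineage. Of 5 measured ILC2 cytokine genes 1 was lower by at least 2-fold, Il13, at 42.6 CPM in cycling and 136 CPM in other cells. Areg, the gene of the epidermal growth factor receptor ligand amphiregulin, had 1232 CPM in cycling and 917 CPM in other cells, within 2-fold. Klf2, a factor of quiescent lymphocytes, was at 42.6 CPM in cycling and 172 CPM in other cells, and Tcf7, a factor of memory and progenitor cells, at 28.4 CPM in cycling and 119 CPM in other cells.

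Pdcd1 transcripts were counted in both libraries. Among knockout-labelled T-assigned cells Pdcd1 had 119 CPM in cycling and 224 CPM in other cells, a log2 ratio of -0.91 [-1.30 to -0.54]. Among wild-type T-assigned cells it had 156 CPM in cycling and 160 CPM in other cells. Among knockout-labelled ILC2-assigned cells it had 189 CPM in cycling and 140 CPM in other cells, with an interval of the log2 ratio that spanned 0 [-0.08 to 0.92].

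Cycling T-assigned cells of both libraries were then set against each other, 101 knockout-labelled against 50 wild-type cells with summed depths of 512139 and 173367 UMIs. Of 2391 measured genes 136 (5.69%) were higher and 134 (5.6%) lower by at least 2-fold in knockout-labelled cells, while for the other T-assigned cells, which are many more and deeper in sum, 33 (1.5%) were higher and 60 (2.73%) lower of 2197. The median log2 ratio of all measured genes was -0.13, and the ratios given here are not shifted by it.

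Most measured cell cycle genes were within 2-fold of each other in both libraries. Mki67 had 961 CPM in knockout-labelled and 1136 CPM in wild-type cycling T-assigned cells, and Top2a 1599 CPM in knockout-labelled and 1563 CPM in wild-type cells. Both genes belong to the rule that chose the cells of each library, so no likeness is read from their levels. None of 12 fork genes and 1 of 12 mitotic genes differed by 2-fold, with median log2 ratios of 0.15 and -0.04. Pcna, the sliding clamp of DNA polymerase, had 826 CPM in knockout-labelled and 444 CPM in wild-type cells, a log2 ratio of 0.90 [0.54 to 1.26], under 2-fold. These levels moved with the cells compared. Without cells with UMIs of other kinds, 138 of 2452 genes (5.63%) were higher and 192 (7.83%) lower. Then 3 of 9 licensing, 2 of 6 nucleotide supply, 4 of 18 chromatin, 2 of 8 kinetochore and 2 of 2 DNA repair genes were higher by at least 2-fold. No gene of these lists was lower, though the kinetochore list had a median log2 ratio of -0.12. Of 12 fork genes 0 were higher and 1 was lower (median log2 0.07), and of 11 mitotic genes 2 were higher and 0 lower. The licensing list summed to 2083 CPM in knockout-labelled and 1456 CPM in wild-type cells. In the upper range, with 56 knockout-labelled and 13 wild-type cells, the mitotic list had 0 of 16 genes higher and 5 lower (median log2 -0.53), and 4 of 18 spindle genes were lower. Over all 2609 genes measured there 215 (8.24%) were higher and 284 (10.9%) lower.

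Effector genes differed more. Of 7 measured cytotoxic and type 1 effector genes 4 were higher and 1 was lower by at least 2-fold. Over all measured genes the shares were 5.69% higher and 5.6% lower. Gzmb, the gene of granzyme B, had 215 CPM in knockout-labelled and 75.0 CPM in wild-type cells, where 3 cells held its UMIs. Without the cells with UMIs of other kinds 6 of 8 effector genes were higher, against 5.63% of all measured genes. Gzmb then had 375 CPM in 73 knockout-labelled and 113 CPM in 43 wild-type cells. In other T-assigned cells, too, 4 of 8 measured genes of this list were higher in knockout-labelled kidney, with a median log2 ratio of 1.03. There 1.5% of all measured genes were higher.

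Gzma, the gene of granzyme A, went the opposite way depending on single cells. It had 281 CPM in knockout-labelled and 617 CPM in wild-type cycling T-assigned cells, where 3 cells held its 107 UMIs, and 518 CPM in 73 knockout-labelled and 131 CPM in 43 wild-type cells once cells with UMIs of other kinds were left out. Hspa1b, a stress-induced HSP70 chaperone gene, had 33.2 CPM in knockout-labelled and 202 CPM in wild-type cells, with UMIs in 4 of the wild-type cells. Ctla4, the gene of an inhibitory receptor of activated and regulatory T cells, had 131 CPM in knockout-labelled and 490 CPM in wild-type cells, a log2 ratio of -1.91 [-2.39 to -1.43]. Without cells with UMIs of other kinds its log2 ratio was -1.17. In other T-assigned cells Ctla4 had 260 CPM in knockout-labelled and 487 CPM in wild-type kidney.

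Genes that tell T cell subsets apart were at different levels. The CD8 genes Cd8a and Cd8b1 together had 609 CPM [544 to 681] in knockout-labelled and 381 CPM [294 to 484] in wild-type cycling T-assigned cells, and 1404 CPM in knockout-labelled and 513 CPM in wild-type other T-assigned cells. Cd4 had 141 CPM in knockout-labelled and 248 CPM in wild-type cycling cells, and 125 CPM in knockout-labelled and 223 CPM in wild-type other cells. Foxp3, the factor of regulatory T cells, had no UMI in knockout-labelled cycling T-assigned cells, where 3 UMIs would be 5.86 CPM, and 46.1 CPM in 3 of 50 wild-type ones. In other T-assigned cells Foxp3 had 4.35 CPM in knockout-labelled and 52.1 CPM in wild-type kidney. Trdc, the constant segment of the delta chain of gamma-delta T cells, had 80.1 CPM in knockout-labelled and 5.77 CPM (1 UMI) in wild-type cycling cells, against 107 CPM in knockout-labelled and 200 CPM in wild-type other cells.

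Several of the highest ratios came from genes of other cell types held by few cells. Lyz2, a lysozyme gene of macrophages and neutrophils, had 482 CPM in 10 knockout-labelled cycling T-assigned cells with a UMI and no UMI in wild-type ones, where 3 UMIs would be 17.3 CPM. Fxyd2, a kidney tubule gene, had 465 CPM from 3 cells. Calca, the gene of the neuropeptide CGRP, and Areg, both strong in ILC2-assigned cells, had 463 and 287 CPM in knockout-labelled cycling T-assigned cells and 34.6 and 57.7 CPM in wild-type ones. Without the cells with UMIs of other kinds Areg had 63.8 CPM in knockout-labelled and 52.3 CPM in wild-type cells, and Calca 90.1 and 8.72 CPM, the last from 1 UMI.

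**Figure D5:**
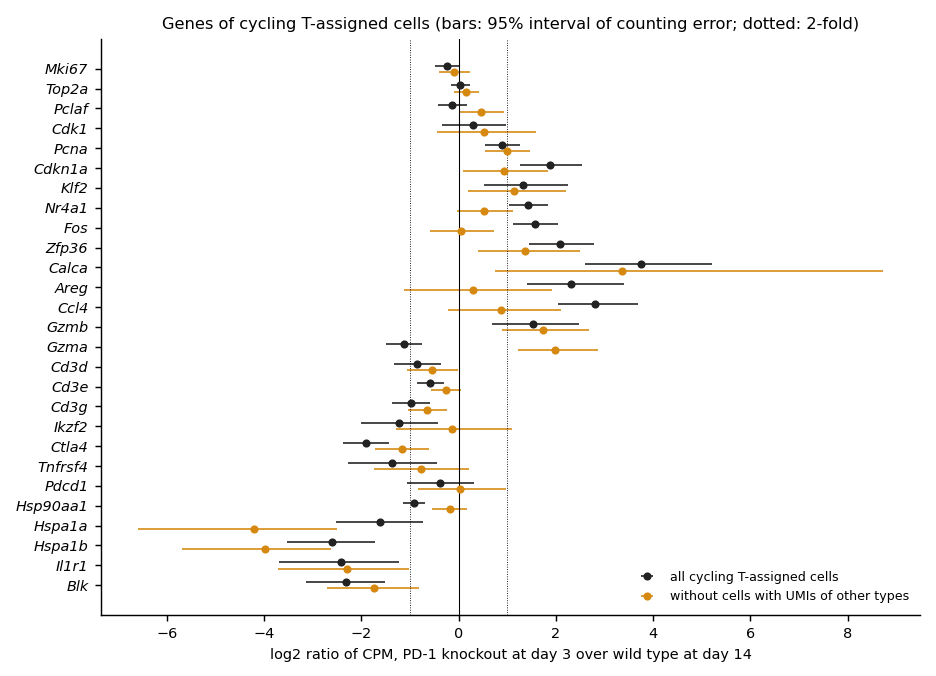
Log2 ratio of CPM in knockout-labelled cells at day 3 over wild-type cells at day 14 (x axis) for genes of cycling T-assigned cells (y axis). Black points are all 101 and 50 cells, orange points the 73 and 43 cells left without those with UMIs of other kinds, and bars are exact 95% intervals of counting error. Mki67 and Top2a, genes of the rule that chose the cells, lie near 0, Ctla4 lies below 0 in both sets of cells and Gzma changes side.

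Within knockout-labelled kidney, the 36 cycling ILC2-assigned cells were set against the 101 cycling T-assigned cells. Of 2303 measured genes 168 (7.29%) were higher and 143 (6.21%) lower by at least 2-fold. Few cell cycle genes differed by 2-fold, with 0 of 12 mitotic and 0 of 9 spindle genes doing so. Mki67 had 990 CPM in ILC2-assigned and 961 CPM in T-assigned cells, and Top2a 1606 and 1599 CPM. These 2 genes belong to the rule that chose both sets, so no likeness is read from their levels. All 12 measured T cell receptor and subset genes were lower and 9 of 12 ILC2 identity genes higher, as the assignment by Il1rl1, Gata3 and CD3 genes sets in part.

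Of the 10 ILC2 cytokine genes, which the assignment did not use, 4 were measured and all 4 were higher. A gene low in T-assigned cells is measured through the ILC2-assigned cells alone, so this count describes the measured genes and is no support. Il5, the gene of the eosinophil growth factor interleukin-5, had 237 CPM in ILC2-assigned and 48.8 CPM in T-assigned cycling cells. Calca had 1980 CPM in ILC2-assigned and 463 CPM in T-assigned cells. Il2ra, the high-affinity subunit of the interleukin-2 receptor, had 1492 CPM in ILC2-assigned and 312 CPM in T-assigned cells, a log2 ratio of 2.26 [1.98 to 2.54]. Klf5, a zinc-finger transcription factor gene, had 185 CPM in ILC2-assigned and 13.7 CPM in T-assigned cells. Hilpda, a lipid droplet gene induced by hypoxia, had 1378 CPM in ILC2-assigned and 252 CPM in T-assigned cells.

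Cdkn1a, which encodes the CDK inhibitor p21, was also higher in cycling ILC2-assigned cells, at 1317 CPM against 508 CPM in cycling T-assigned cells. Ptgs2, which encodes the prostaglandin synthase COX-2, had 602 CPM in ILC2-assigned and 117 CPM in T-assigned cells. Klf2 had 42.6 CPM in ILC2-assigned and 203 CPM in T-assigned cells, and Gzmb 37.9 CPM in ILC2-assigned and 215 CPM in T-assigned cells. With T-assigned cells that had UMIs of other kinds left out, 246 of 2403 genes (10.2%) were higher and 240 (9.99%) lower. Il2ra then had 124 CPM and Cdkn1a 248 CPM in the 73 T-assigned cells. Non-cycling ILC2- and T-assigned cells were not set against each other. Whether these differences are particular to cycling cells was therefore not tested.

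A small set of cycling cells held UMIs of the surrogate light chain genes Vpreb1, Igll1 and Vpreb3, whose products pair with the immunoglobulin heavy chain in developing B cells. At least 3 such UMIs, a bound chosen after the values were seen, were held by 8 of 168 cycling and 15 of 6792 other (0.221%) knockout-labelled cells. In wild-type kidney 11 of 85 cycling and 13 of 5127 other (0.254%) cells held them. All 19 cycling ones were in the upper range, where they were 8.42% of knockout-labelled and 28.9% of wild-type cells. Of the 8 knockout-labelled cells 4 had no lineage by the rule, 3 were T-assigned and 1 was ILC1/NK-assigned, and of the 11 wild-type cells 10 had no lineage.

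These cells carried further genes of the B lineage. Ebf1, a transcription factor of early B cells, had 812 CPM in knockout-labelled and 856 CPM in wild-type cells of this set, against 4.99 CPM in the other knockout-labelled cycling cells. Pax5, which holds B cell identity, had 737 CPM in knockout-labelled and 816 CPM in wild-type cells. Dntt, which encodes terminal transferase and adds bases at antigen receptor joints, had 541 CPM in knockout-labelled and 503 CPM in wild-type cells, with UMIs in 4 cells of each library.

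Genes of mature B cells were low in them. Ms4a1, the gene of CD20, had no UMI in the 8 knockout-labelled cells, where 3 UMIs would be 45.1 CPM, and 2 UMIs or 27.2 CPM in the 11 wild-type cells. Cd74, the invariant chain of MHC class II, had 150 CPM in knockout-labelled and 81.6 CPM in wild-type cells. In 80 knockout-labelled and 79 wild-type non-cycling cells with at least 5 UMIs of B cell markers, Ms4a1 had 2929 and 2770 CPM and Cd74 11425 and 8609 CPM. Cd24a, a surface protein of immature B cells, had 3217 CPM in knockout-labelled and 3765 CPM in wild-type cycling cells of the set, against 1203 and 1249 CPM in those non-cycling cells. The rule for a cycling cell asks for no lineage gene, so these cells are counted among the 253.

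Markers of other cell types were counted beside the cycling cells. At least 5 UMIs of macrophage and neutrophil markers were held by 7 of 168 cycling and 29 of 6792 other knockout-labelled cells, and by 1 of 85 cycling and 14 of 5127 other wild-type cells. The summed level of 6 macrophage markers was 713 CPM in cycling and 81.4 CPM in other knockout-labelled cells, and 361 CPM in cycling and 59.1 CPM in other wild-type cells, of which 1 wild-type cycling cell held 118 of 121 UMIs. The 3 neutrophil markers summed to 758 CPM in cycling and 27.1 CPM in other knockout-labelled cells. Only 8 of the 168 cycling cells held their 658 UMIs, with 406 in 1 cell and 656 in the lower range. None of the 3 had a UMI among the 335510 UMIs of wild-type cycling cells. The 7 kidney epithelium markers summed to 323 CPM in cycling and 194 CPM in other knockout-labelled cells, with 244 of the 280 cycling UMIs in 1 cell. The part of these cells in the ratios above was not tested beyond leaving them out.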

How the data were processed

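Per the labels, single-cell libraries were made with BD Rhapsody, and the protocol describes a digestion of pulmonary artery tissue that does not match the organs named. The deposited values are raw UMI counts per gene and cell for 31253 genes. CASAVA 1.8, UMI-tools, Seurat and the build mm10 are listed in the submitters' processing notes. No aligner or annotation is given in the sources used here. A wild-type kidney library at day 3 was not analysed here beyond its barcodes. The wild-type day 14 counts took the gene names of the other libraries, which were identical, and log2 levels across genes correlated with the knockout-labelled kidney at 0.992, against 0.209 after a shift by 1 row. Depth was 16466027 UMIs in 7007 barcodes for knockout-labelled and 10362652 UMIs in 5282 barcodes for wild-type kidney. Wild-type kidney shared 24 barcodes with each intestinal library and 25 with wild-type kidney at day 3, of which 1 belonged to a cycling cell. Columns of per-sample values that were not used numbered 0.

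Filters removed cells under 500 UMIs, under 250 genes or over 20% mitochondrial UMIs. A lineage needed at least 2 UMIs of its genes, tried in the order CD3, ILC2, ILC1/NK. Counts were summed over the cells of a set and scaled to CPM. Ratios carry exact conditional binomial intervals, shares Clopper-Pearson intervals and levels Poisson intervals, and a gene at 0 took a floor of 3 counts. Named genes were the 10 highest and 10 lowest ratios, up to 4 members of each list and fixed genes. Genes outside that rule (the surrogate light chain genes and those shown with them, and the T cell subset genes) were chosen after their values were seen. The ratio code was tested on simulated counts. The cycling rule, members and 34 gene lists were chosen with earlier results of these data known. Alternatives varied the UMI bound, genes, depth, filters, doublets, lineage and scaling. Python 3.11.15, numpy 2.4.6, scipy 1.17.1, pandas 2.3.3, scanpy 1.11.5 (Scrublet) and matplotlib 3.10.9 were used. A gene that the naming rule takes is not reported here.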

Additional observations from a re-analysis of the deposited data

How the results depend on the processing

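Of 206 recomputed values that answer a comparison, 142 stayed inside the 95% counting interval of the value reported or, for counts of genes, within 1.5 times of it, 63 moved out and 1 turned round. Of 1401 values of single genes 1194 stayed inside, 196 moved and 11 turned round. The cause was not tested where none is named. With 1 library per group there is no spread between replicates, and the 253 cycling cells limit the genes that can be measured.

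The cycling share of kept cells, 2.41% in knockout-labelled and 1.63% in wild-type kidney, was 4.37 and 4.28% at 2 or more UMIs of the 4 genes, 1.55 and 0.787% at 5 or more, 1.36 and 0.729% at 6 or more, and 1.18 and 0.783% with cells thinned to 1000 UMIs. For T-assigned cells it was 4.79 and 4.85% at 2 or more UMIs, 1.5 and 0.456% at 5 or more, 1.35 and 0.423% at 6 or more, 0.699 and 0.672% with thinned cells, and 1.73 and 1.62% without cells holding UMIs of more than 1 lineage. For ILC2-assigned knockout-labelled cells it was 6.68% at 2 or more UMIs, 2.88% at 6 or more and 3.16% with thinned cells. The log2 ratio of the shares of kept cells, 0.57, was 0.030 at 2 or more and 0.98 at 5 or more UMIs. That of T-assigned cells, 0.59, was -0.019 at 2 or more, 1.72 at 5 or more, 1.68 at 6 or more UMIs and 0.056 with thinned cells. With thinned cells and the lineage of the whole cell it was 0.88, without mixed cells 0.090 [-0.50 to 0.69] and by most UMIs 0.46 [-0.09 to 1.03]. The ratio thus depended on the bound, on mixed cells and on how the lineage was read, though the last 2 values lie inside the wide interval of the value reported.

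The T-assigned share of wild-type cycling cells, 58.8%, was 34.1% at 5 or more UMIs, 34.2% at 6 or more and 39.5% with thinned cells, and the ILC2-assigned share, 11.8%, was 22.0 and 23.7% at 5 or more and 6 or more UMIs. In knockout-labelled kidney the T-assigned share of cycling cells, 60.1%, was 24.4% with thinned cells, 75.6% with 1 UMI for a lineage, 49.2% without mixed cells and 47.0% by most UMIs. The ILC2-assigned share, 21.4%, was 13.7% with 1 UMI and 33.3% by most UMIs. The share of cycling cells with more S phase than mitosis UMIs was 62.1% in knockout-labelled kidney at 6 or more UMIs and 48.8% in wild-type kidney at 5 or more.

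Counts of genes past 2-fold grew most with 10 UMIs and no CPM minimum. Cycling against other T-assigned cells then gave 2278 higher and 922 lower genes in knockout-labelled and 2590 and 835 in wild-type kidney, and ILC2-assigned cells gave 1240 and 864. Knockout-labelled against wild-type cycling T-assigned cells gave 842 and 626, and cycling ILC2- against T-assigned cells 586 and 1078. At 6 or more UMIs of the rule genes, lower genes numbered 211 in knockout-labelled T-assigned, 112 in ILC2-assigned and 409 in wild-type T-assigned cells, which had 595 higher ones. Knockout-labelled against wild-type cycling T-assigned cells then gave 215 higher and 284 lower. Means of single-cell CPM gave 38 lower genes in knockout-labelled and 113 higher genes in wild-type T-assigned cells. Without cells of other types the T-assigned counts were 128 higher and 35 lower in knockout-labelled and 126 higher in wild-type kidney, and 240 genes were lower in cycling ILC2- than T-assigned cells. Without mixed cells 217 genes were lower in knockout-labelled than wild-type cycling T-assigned cells, and 262 were higher and 277 lower in cycling ILC2- than T-assigned cells.

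Log2 ratios of single genes turned round in knockout-labelled against wild-type cycling T-assigned cells for Gzma (0.51 by single-cell means, 2.09 without mixed cells, 1.99 without other types), Areg (-0.38 without mixed cells), and at 6 or more UMIs Il1r1 (0.88), Tnfrsf4 (0.58), Tnfrsf9 (1.52) and Il17a (1.05). In cycling ILC2- against T-assigned cells they turned round for Fxyd2 (0.97 without mixed cells) and, without other types, S100a8 (0.34) and Apoe (0.34). No paired analysis was possible because each group is 1 library and no test was made.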
